A study of Homo sapiens with 6 samples.

Results

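Genes of histone methyltransferases, demethylases, acetyltransferases, deacetylases, bromodomain proteins and the subunits of ATP-dependent chromatin remodellers were examined as targets of G-quadruplex (G4) signal in U2OS cells, a human osteosarcoma line. A G4 forms when a guanine-rich DNA strand folds on itself into stacked tetrads of guanines. ChIP-seq, the sequencing of immunoprecipitated chromatin, was done with BG4, an antibody to folded G4s, on cells treated with 1,6-hexanediol (HD) and on untreated cells (Ctrl). Hexanediol is a small alcohol widely used to disperse protein and RNA condensates. The 6 libraries were, for HD and for Ctrl alike, 2 from BG4 ChIP and 1 from input, the sheared chromatin before immunoprecipitation. A single peak list stood for each condition. Neither its dose nor its duration was stated in the labels. Both conditions used formaldehyde-fixed cells of the same line and carry no other labelled treatment or genetic change.

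The genes were chosen by symbol among protein-coding genes of the autosomes and the X chromosome. The rule took KMT, KDM, KAT, SETD, HDAC, BRD or CHD followed by a digit, and any symbol that begins with SMARC, ARID or INO80, which gave 103 of 19821 genes. BRD3OS and CHD9NB fit the rule by their letters only, being named after the neighbouring genes BRD3 and CHD9. A gene was called marked in a list when a peak lay within 1 kb of either of its ends. The rule did not use any measured value. With 1 list per condition and no value per library, the values below carry no replicate error, and differences between HD and Ctrl could not be set against it. Each of the 2269 HD peaks is named after replicate 1, so the HD list may rest on 1 library or on both.

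Histone methyltransferases (KMT and SETD symbols) add methyl groups to histone lysines, demethylases (KDM) remove them, acetyltransferases (KAT) and deacetylases (HDAC) do the same for acetyl groups, and bromodomain proteins (BRD) bind acetylated lysines. CHD, SMARC and INO80 proteins are ATPases and subunits of complexes that slide, evict or exchange nucleosomes, as are some ARID proteins. Other ARID proteins, among them ARID3B, ARID4A and ARID5A, are DNA-binding, RNA-binding or corepressor proteins. Folded G4s have been mapped mostly at nucleosome-depleted promoters of expressed genes.

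Upstream sequences of 9 marked genes are shown because a peak summit falls within each of them. They are the 250 bases before an annotated start (RefSeq, GRCh38.p14), read 5′ to 3′ along the gene. Capitals mark stretches in which 4 runs of GGG, or of CCC for the opposite strand, are separated by 1 to 7 bases of any kind. This is a common sequence definition of a potential G4. The first 5 belong to genes marked in both lists.
HDAC1, chr1:32291833-32292082, plus strand: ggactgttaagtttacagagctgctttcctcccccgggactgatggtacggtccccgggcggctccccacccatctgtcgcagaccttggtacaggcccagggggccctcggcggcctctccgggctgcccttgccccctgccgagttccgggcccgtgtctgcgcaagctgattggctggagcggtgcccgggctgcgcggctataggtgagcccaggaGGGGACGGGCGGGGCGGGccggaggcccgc
KMT5A, chr12:123383882-123384131, plus strand: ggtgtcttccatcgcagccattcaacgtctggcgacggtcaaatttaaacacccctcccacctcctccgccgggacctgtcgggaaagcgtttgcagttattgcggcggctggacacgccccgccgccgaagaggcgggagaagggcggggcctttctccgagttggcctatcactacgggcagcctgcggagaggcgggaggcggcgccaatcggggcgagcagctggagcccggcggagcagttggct
SETD9, chr5:56909807-56910056, plus strand: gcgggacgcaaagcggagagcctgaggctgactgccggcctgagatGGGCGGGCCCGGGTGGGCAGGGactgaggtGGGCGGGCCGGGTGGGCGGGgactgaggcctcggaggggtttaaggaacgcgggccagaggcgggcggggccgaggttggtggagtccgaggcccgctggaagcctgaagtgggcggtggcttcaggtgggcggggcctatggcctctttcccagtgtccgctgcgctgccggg
HDAC11, chr3:13480056-13480305, plus strand: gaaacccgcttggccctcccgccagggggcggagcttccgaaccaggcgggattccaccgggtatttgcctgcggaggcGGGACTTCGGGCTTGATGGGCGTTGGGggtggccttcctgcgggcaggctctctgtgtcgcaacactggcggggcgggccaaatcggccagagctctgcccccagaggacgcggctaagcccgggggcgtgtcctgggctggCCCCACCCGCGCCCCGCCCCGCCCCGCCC
KDM4B, chr19:4968863-4969112, plus strand: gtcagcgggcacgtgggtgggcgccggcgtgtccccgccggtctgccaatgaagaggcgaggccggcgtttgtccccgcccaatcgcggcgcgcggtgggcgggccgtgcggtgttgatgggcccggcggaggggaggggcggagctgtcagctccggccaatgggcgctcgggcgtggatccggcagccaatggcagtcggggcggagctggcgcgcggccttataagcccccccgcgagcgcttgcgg
The next 2 belong to genes marked in the HD list only.
ARID5A, chr2:96536502-96536751, plus strand: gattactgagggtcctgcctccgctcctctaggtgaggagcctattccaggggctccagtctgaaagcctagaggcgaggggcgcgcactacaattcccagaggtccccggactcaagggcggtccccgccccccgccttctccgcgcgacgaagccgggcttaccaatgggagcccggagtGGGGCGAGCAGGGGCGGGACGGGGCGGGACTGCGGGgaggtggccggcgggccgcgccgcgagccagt
CHD1L, chr1:147172497-147172746, plus strand: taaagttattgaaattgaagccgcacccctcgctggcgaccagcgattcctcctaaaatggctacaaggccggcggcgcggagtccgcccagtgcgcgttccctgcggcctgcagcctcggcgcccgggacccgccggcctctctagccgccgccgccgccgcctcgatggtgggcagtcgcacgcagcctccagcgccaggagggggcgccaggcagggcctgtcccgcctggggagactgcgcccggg
The last 2 belong to genes marked in the Ctrl list only.
KDM4A, chr1:43649899-43650148, plus strand: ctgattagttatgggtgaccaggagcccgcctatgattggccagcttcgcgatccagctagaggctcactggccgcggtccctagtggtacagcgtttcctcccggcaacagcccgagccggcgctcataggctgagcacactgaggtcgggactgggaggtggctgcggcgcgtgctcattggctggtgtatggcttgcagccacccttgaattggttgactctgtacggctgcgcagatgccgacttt
KAT7, chr17:49788431-49788680, plus strand: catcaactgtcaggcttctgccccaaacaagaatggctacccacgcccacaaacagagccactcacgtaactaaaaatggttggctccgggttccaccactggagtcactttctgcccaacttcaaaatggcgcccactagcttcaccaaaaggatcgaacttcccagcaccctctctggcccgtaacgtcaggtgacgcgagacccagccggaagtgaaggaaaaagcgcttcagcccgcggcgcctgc
Of these 9 stretches, 4 held the G4 letters. HDAC1 held 1 stretch of 18 bases, 13 to 30 bases before the start, and its HD and Ctrl summits lay 74 and 82 bases before the start. SETD9 held 2, of 22 and 20 bases, with the HD and Ctrl summits 100 and 63 bases before a start that lies 797 bp inside the gene. HDAC11 held 1 on each strand, of 27 and 29 bases. ARID5A held 1 of 36 bases, with the HD summit 93 bases before the start. KDM4B, at 75.6% G and C the richest of the 9, held none, and KAT7 was the lowest at 56.4%.

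Chromatin modifier and remodeller genes were marked at 18 of 103 members in HD and at 17 in Ctrl. These shares were 17.5% in HD (exact Clopper-Pearson 95% interval 10.7 to 26.2) and 16.5% in Ctrl (9.92 to 25.1). Among all 19821 protein-coding genes, HD peaks marked 8.11% and Ctrl peaks 10.9%. Both lists marked 12 members (11.7%, against 5.20% of all coding genes). The HD list alone marked 6 (5.83% against 2.92%) and the Ctrl list alone marked 5 (4.85% against 5.70%). No peak lay at the ends of the other 80 members (77.7% against 86.2%). Of the members marked in HD, 66.7% were also marked in Ctrl, close to the 64.1% of all coding genes. Of those marked in Ctrl, 70.6% (44.0 to 89.7) were also marked in HD, against 47.7% of all coding genes, a value inside that interval. With both lists cut to their 2172 peaks of highest −log10 q, HD marked 18 members (17.5% against 8.11% of all coding genes) and Ctrl marked 11 (10.7% against 7.83%). The part that expression level or base composition plays in these shares was not tested.

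**Figure D1:**
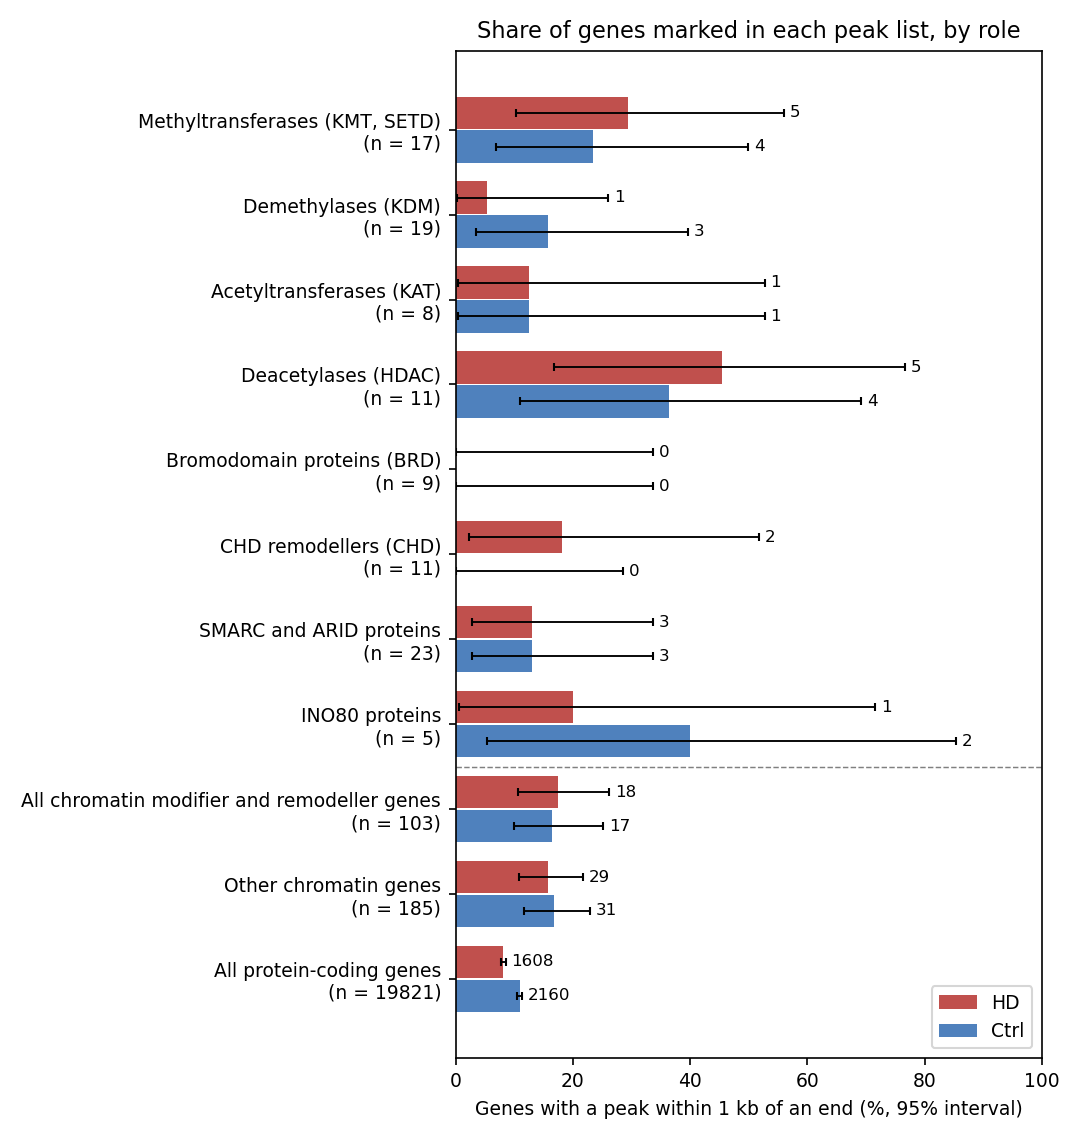
Percent of genes with a peak within 1 kb of either gene end in the HD list (red) and the Ctrl list (blue), by role, with the number of marked genes beside each bar and exact 95% binomial intervals as error bars. Deacetylases have the highest HD share, 5 of 11 genes, and genes with BRD symbols have no peak in either list.

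Peak signal is given as the number of ChIP fragments over the summit, recovered from the caller's fold and p-value, and as its ratio to the genome-wide mean number of fragments per position. That mean was 5.51 in HD and 3.74 in Ctrl, so raw numbers are higher in HD at equal enrichment. Intervals are exact 95% Poisson intervals and cover counting error only, since reads without molecular identifiers can be copies of 1 molecule. The marked members had 26 to 59 fragments in HD (median 34.0, against 35.0 over all marked coding genes) and 17 to 47 in Ctrl (median 27.0, against 27.0). Their median fragment numbers were thus close to those of marked genes at large, whose highest numbers reached 194 in HD and 437 in Ctrl. Their ranks in the lists by −log10 q ran from the 6.77th to the 91.3rd percentile in HD and from the 11.0th to the 96.0th in Ctrl. The median percentile was 43.8 in HD and 49.8 in Ctrl, below the 51.6 and 56 of all marked coding genes.

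**Figure D2:**
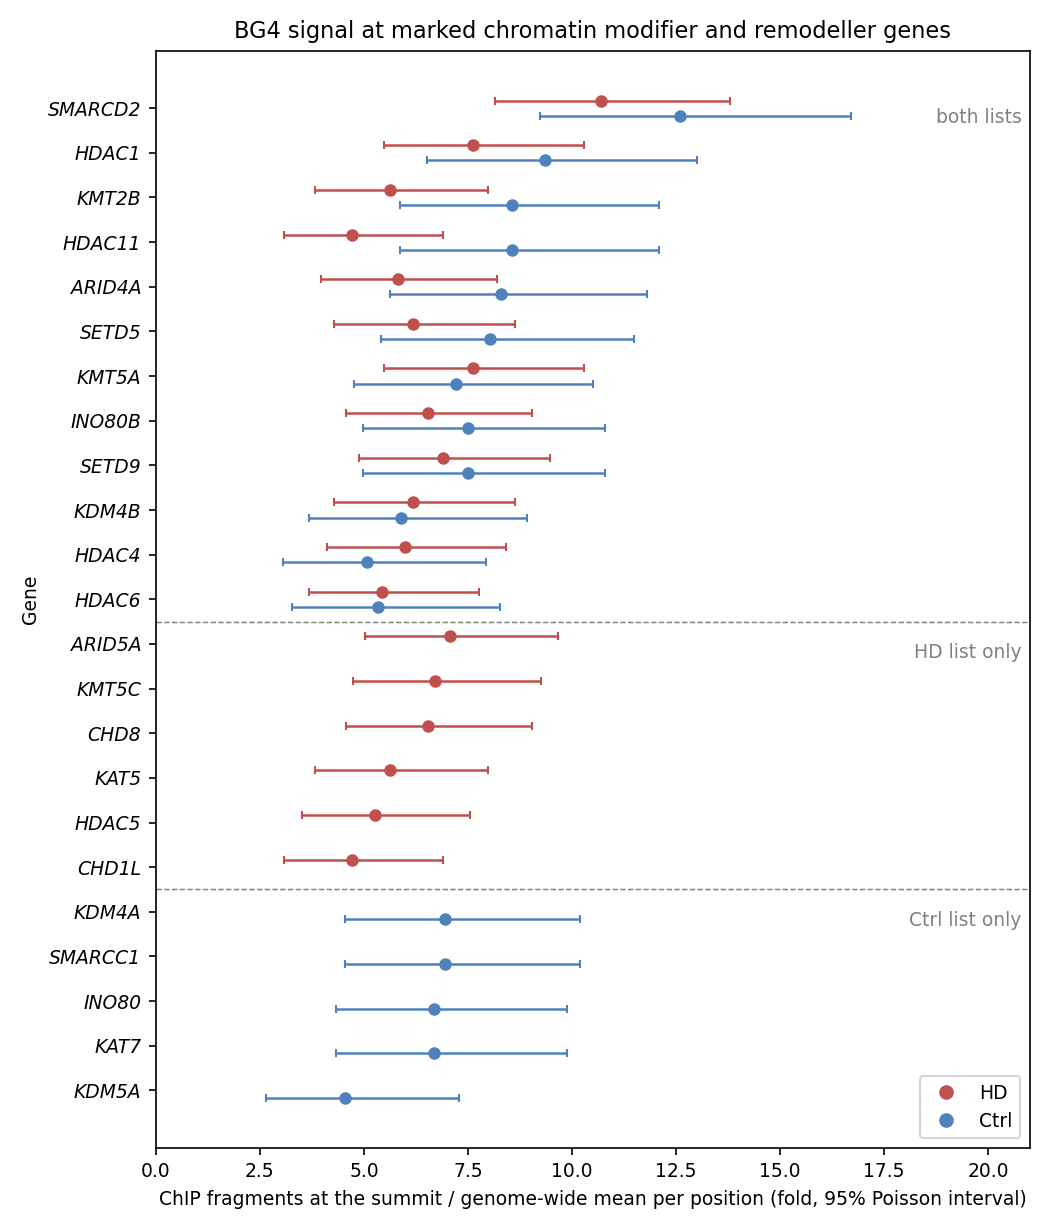
ChIP fragments at the summit relative to the genome-wide mean per position for the 23 marked genes, HD in red above Ctrl in blue, with exact 95% Poisson intervals. SMARCD2 has the highest value in each list, and the HD and Ctrl intervals overlap at all 12 genes marked in both.

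Deacetylases were the family with the highest marked share in HD, at 5 of 11 members (45.5%, 16.7 to 76.6, against 8.11% of all coding genes). The 4 marked in Ctrl (36.4%, 10.9 to 69.2, against 10.9%) were all among these. The family is singled out as the highest in HD of several small ones, and the intervals do not allow for that choice. HDAC1, the catalytic subunit of several corepressor complexes, had 42 fragments (30.3 to 56.8) in HD and 35 (24.4 to 48.7) in Ctrl. This is 7.62 times the genome-wide mean in HD and 9.36 times in Ctrl, a depth-scaled HD to Ctrl ratio of 0.814 (0.507 to 1.31). HDAC11, the single class IV deacetylase, had 26 fragments (17.0 to 38.1) in HD and 32 (21.9 to 45.2) in Ctrl. Its ratio of 0.551 (0.315 to 0.954) was the lowest of the 12 members in both lists, and its interval alone of the 12 lay below 1, as did those of 33 of all 1030 coding genes in both lists (3.20%). Its interval included 1 when scaled by the input expectation (0.715, 0.409 to 1.24) and with no scaling (0.812, 0.465 to 1.41). A −log10 q of at least 3 removed HDAC11, ARID4A and CHD8 from the HD list. HDAC4, a class IIa deacetylase that shuttles between nucleus and cytoplasm, had 33 fragments in HD and 19 in Ctrl, and its ratio of 1.18 (0.650 to 2.19) was the highest of the 12. HDAC6, the mainly cytoplasmic tubulin deacetylase on the X chromosome, had 30 in HD and 20 in Ctrl (ratio 1.02, 0.559 to 1.89). HDAC5, the other class IIa member with a peak at a gene end, was marked in HD only, with 29 fragments (19.4 to 41.6). In Ctrl it had a peak of 26 fragments inside the gene, 12228 bp from the nearer end. HDAC2, HDAC3, HDAC7, HDAC8, HDAC9 and HDAC10 had no peak at their ends in either list.

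Of 17 histone methyltransferase genes, 5 were marked in HD (29.4%, 10.3 to 56.0, against 8.11%) and 4 in Ctrl (23.5%, 6.81 to 49.9, against 10.9%), all 4 being shared. KMT5A, which monomethylates lysine 20 of histone H4, had 42 fragments (30.3 to 56.8) in HD and 27 (17.8 to 39.3) in Ctrl, a ratio of 1.05 (0.635 to 1.78). KMT5C, which carries the same lysine to trimethylation, had 37 (26.1 to 51.0) in HD and no Ctrl peak, the nearest Ctrl peak being 59.6 kb away. The third enzyme of that pathway, KMT5B, had no peak in either list. KMT2B, a methyltransferase of histone H3 lysine 4, had 31 in HD and 32 in Ctrl (ratio 0.657, 0.388 to 1.11). Its relatives KMT2A, KMT2C and KMT2D were not marked. KMT2E had an HD peak of 38 fragments 1021 bp from the gene, just outside the window. SETD5, a SET domain protein mutated in intellectual disability, had 34 in HD and 30 in Ctrl (ratio 0.769, 0.456 to 1.30). SETD9, a little studied SET domain protein, had 38 in HD and 28 in Ctrl (ratio 0.920, 0.550 to 1.56).

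Of 19 demethylase genes, 1 was marked in HD (5.26%, 0.133 to 26.0, against 8.11% of all coding genes) and 3 in Ctrl (15.8%, 3.38 to 39.6, against 10.9%), shares near those of all coding genes. KDM4B, which removes methyl groups from lysine 9 of histone H3, was marked in both lists with 34 fragments in HD and 22 in Ctrl (ratio 1.05, 0.595 to 1.88). Its close relative KDM4A had 26 fragments (17.0 to 38.1) in Ctrl and no HD peak within 291 kb. KDM5A, which acts on H3 lysine 4, had 17 fragments (9.90 to 27.2) in Ctrl, the lowest number among marked members, and its peak also lay at the end of CCDC77. The lowest number at any called Ctrl summit was 15, and a −log10 q of at least 3 removed KDM5A. Among acetyltransferases, KAT5 (TIP60) was marked in HD only, with 31 fragments (21.1 to 44.0), and KAT7 (HBO1) in Ctrl only, with 25 (16.2 to 36.9) and with 23 in a second peak. The other 6 of the 8 had none within 1 kb of their ends. Each list thus marked 1 of 8 (12.5%, 0.316 to 52.7), against 8.11% of all coding genes in HD and 10.9% in Ctrl. None of the 9 genes with BRD symbols had a peak at an end in either list (upper bound 33.6%). That bound lies above the shares of all coding genes, so 9 genes are too few to show a lower share.

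Of 23 SMARC and ARID genes, 3 were marked in each list (13.0%, 2.78 to 33.6), near the 8.11% in HD and 10.9% in Ctrl of all coding genes. SMARCD2, an accessory subunit of SWI/SNF complexes, had 59 fragments (44.9 to 76.1) in HD and 47 (34.5 to 62.5) in Ctrl, 10.7 and 12.6 times the genome-wide mean, with a ratio of 0.851 (0.570 to 1.28). These were the highest numbers at the ends of any member. The caller's local expectation at the summit was 3.05 times the genome-wide value in HD and 1.60 times in Ctrl, and by the authors' fold over that expectation other members ranked higher. Within the HD list its fold was 3.32, below KMT5A at 6.28 and HDAC1 at 6.20, and within the Ctrl list it was 6.82, below HDAC1 at 7.49 and HDAC11 at 6.87. SMARCC1, a core SWI/SNF subunit, had 26 (17.0 to 38.1) in Ctrl and none in HD within 21 kb. The ATPases SMARCA2 and SMARCA4 and the subunits SMARCB1, SMARCE1, ARID1A, ARID1B and ARID2 were not marked. ARID4A, an RB-binding protein of Sin3 corepressor complexes, had 32 in HD and 31 in Ctrl (ratio 0.700, 0.414 to 1.19). ARID5A, known for binding cytokine transcripts, had 39 (27.7 to 53.3) in HD and no Ctrl peak within 85.7 kb.

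CHD remodeller genes were marked at 2 of 11 members in HD (18.2%, 2.28 to 51.8, against 8.11% of all coding genes) and at 0 in Ctrl (upper bound 28.5%, against 10.9%). CHD8, a repressor of beta-catenin targets, had 36 fragments (25.2 to 49.8) in HD, where the local expectation was 2.03 times the genome-wide value. Its listed start lies 18.8 kb inside the gene, so with any annotated start in place of gene ends CHD8 was not marked, and CHD1L was then marked in both lists. CHD1L (ALC1), a remodeller recruited by PARP activity, had 26 (17.0 to 38.1) in HD at its outer start. Of 5 genes with INO80 symbols, 1 was marked in HD (20%, 0.505 to 71.6, against 8.11%) and 2 in Ctrl (40%, 5.27 to 85.3, against 10.9%). INO80, the ATPase of the INO80 complex, had 25 (16.2 to 36.9) in Ctrl and no HD peak within 84.4 kb. Its subunit gene INO80B had 36 in HD and 28 in Ctrl (ratio 0.872, 0.517 to 1.48), but both peaks lay beyond the end of the gene and also at an end of WBP1. INO80B was lost in both lists when each peak was given to the gene with the nearest end.

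Across the 12 members marked in both lists the median depth-scaled HD to Ctrl ratio was 0.862, against 0.887 over all 1030 coding genes in both lists. Summed over the 12, 437 HD and 351 Ctrl fragments gave a ratio of 0.844 (0.732 to 0.974), against 0.881 over the 1030. The ratio was below 1 at 8 of 12 members (66.7%) and at 72.7% of all genes in both lists. The direction depends on the scaling. Scaled by the genome-wide input expectation instead of ChIP depth, the median was 1.12 (1.15 over all genes in both lists), the summed ratio 1.09 (0.949 to 1.26), and 4 of 12 members lay below 1 (25.7% of all genes). With no scaling the median was 1.27 (1.31 over all genes), the summed ratio 1.25 (1.08 to 1.44), and 2 of 12 lay below 1 (6.80% of all genes). Each scaling divides all genes by the same constant, so this shift follows from the choice of scaling and is not separate evidence. The ratios also carry no replicate error. Whether BG4 signal at these genes was lower or higher in HD is not settled by these values. The HD and Ctrl peaks shared bases at all 12 members, with a median of 49.5 bp between their summits and at most 219 bp, at HDAC6.

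**Figure D3:**
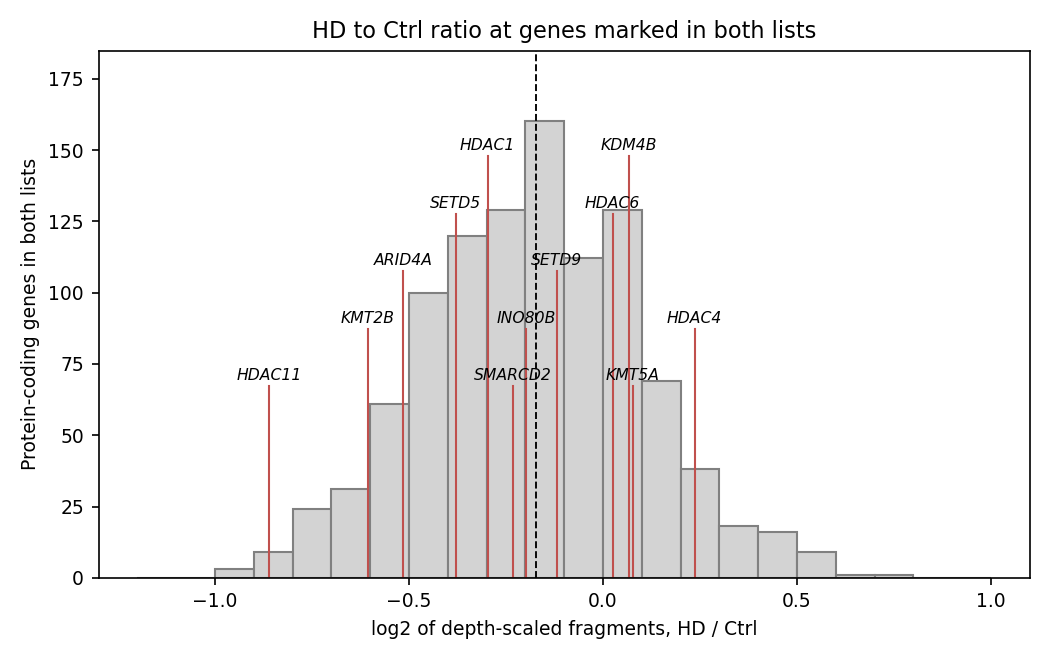
Distribution of the log2 ratio of depth-scaled fragments, HD over Ctrl, at the 1030 protein-coding genes marked in both lists (grey bars) with the 12 chromatin genes as red lines and the median of all genes as a dashed line. The members spread over most of the distribution, with HDAC11 near its lower end.

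Members marked in Ctrl only had lower fragment numbers than most shared members, while those marked in HD only lay within the range of the shared ones. In HD the fragment numbers had a median of 33.5 at the 6 HD-only members, with a range of 26 to 39, and of 34.0 at the shared members. In Ctrl the median was 25 at the 5 Ctrl-only members, with a range of 17 to 26, and 29.0 at the shared members, whose range was 19 to 47. Over all coding genes these medians were 31.0 for HD-only and 38.0 for shared genes in HD, and 25 for Ctrl-only and 29.0 for shared genes in Ctrl. Where a list has no peak the number of fragments is not known, so no ratio was formed for these genes.

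Most peaks lay at gene starts. Strand was given for 88 of the 103 members, and among marked members with a strand the peak was at the start of the gene for 16 of 17 in HD and 15 of 16 in Ctrl, INO80B being the exception in each. Over all marked coding genes with a strand, 93.7% in HD and 95.3% in Ctrl were at starts. The summit lay upstream of the start at 12 of 16 members in HD and at 11 of 15 in Ctrl, with median positions of −122 and −172 bp. Member peaks lay farther from the gene end, by their median, than those of coding genes at large, a difference for which no test was made. The median distance from summit to gene end was 313 bp in HD and 297 bp in Ctrl, against 145 bp and 134 bp over all marked coding genes. Summits within 250 bp of the end made up 44.4% of members in HD and 47.1% in Ctrl, against 70.3% and 73.5%. A peak shared with an end of another coding gene occurred at 3 of 18 members in HD (16.7% against 36.9% of all marked genes) and 4 of 17 in Ctrl (23.5% against 35.6%). These partners were PRKAB2 for CHD1L, WBP1 for INO80B, ZBTB32 for KMT2B, FAM117A for KAT7 and CCDC77 for KDM5A. No marked member lay near the limit of the window: the farthest peak inside it was that of SETD5, 451 bp away in HD and 455 bp in Ctrl, and the nearest outside it was that of KMT2E.

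**Figure D4:**
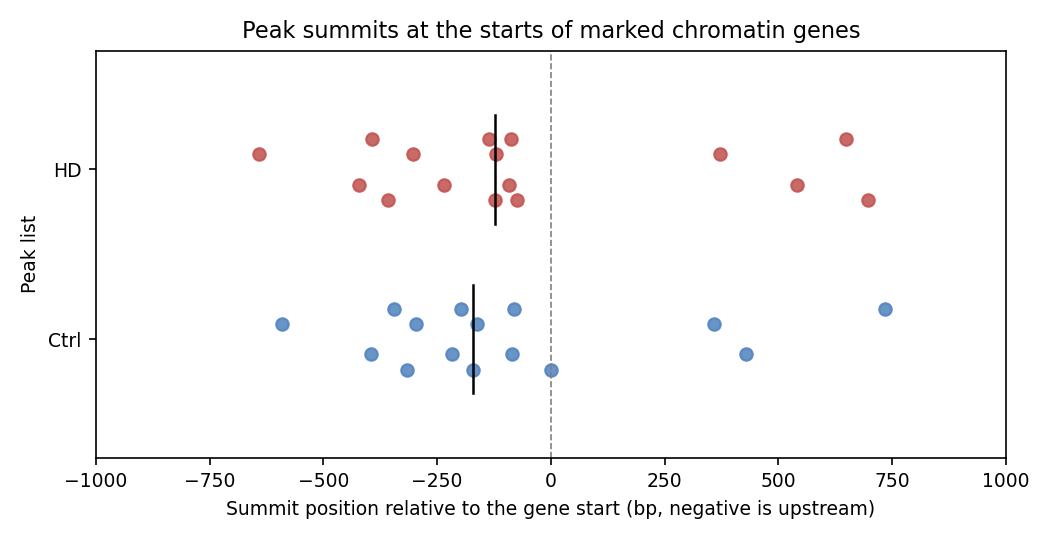
Position of the peak summit relative to the gene start, along the direction of transcription, for members marked at their start, in the HD list (16 genes, top) and the Ctrl list (15 genes, bottom). Black bars are the medians, −122 bp in HD and −172 bp in Ctrl.

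Some members without a peak at their ends had one inside the gene, often at another annotated start. There were 4 such peaks in HD and 8 in Ctrl, in 9 members, 7 of which had no peak at their ends. Starts were listed for 6 of the 9, and at 5 of these the summit was within 300 bp of one. Inner peaks were not counted over all coding genes, so these numbers do not show a trait particular to the members. KAT6B, a MYST family acetyltransferase, had 44 fragments (32 to 59.1) in HD and 49 (36.3 to 64.8) in Ctrl, the highest Ctrl number of any member, 287 and 262 bp from an annotated start. These peaks lay 1078 bp in HD and 1062 bp in Ctrl from the gene end, just outside the window. A window of 2 kb marked KAT6B in both lists. Its ratio was 0.609 (0.396 to 0.934), with intervals that included 1 when scaled by the input expectation (0.790, 0.513 to 1.21) and with no scaling (0.898, 0.584 to 1.38). KDM3A, a demethylase of H3 lysine 9, had 35 in HD and 20 in Ctrl (ratio 1.19, 0.666 to 2.17), 28 and 63 bp from an annotated start. Inside the H3 lysine 36 demethylase genes KDM2A and KDM2B and inside CHD1L there were peaks in Ctrl only, with 19, 26 and 23 fragments, 191, 56 and 43 bp from an annotated start. CHD1L thus had its HD peak at the outer start and its Ctrl peak at an inner one. SETD1B, an H3 lysine 4 methyltransferase, had 20 fragments in Ctrl only, and ARID3B, a DNA-binding protein, had 32 in HD only. CHD2, a remodeller mutated in childhood epilepsy, differed from these. Its peak lay 3913 bp inside the gene in HD and 3903 bp in Ctrl, over 4 kb from the listed start, with 56 fragments (42.3 to 72.7) in HD and 22 (13.8 to 33.3) in Ctrl. Its ratio of 1.73 (1.04 to 2.97) was higher than at all 1030 coding genes marked in both lists, but those ratios come from peaks at gene ends. Inner peaks of other coding genes were not compared. The other scalings raise every ratio, here to 2.24 (1.35 to 3.85) by the input expectation and to 2.55 (1.53 to 4.38) with none. CHD2 is 1 of 3 members with overlapping inner peaks in both lists.

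The G4 letters stood in 34 of 88 member promoters. Each promoter was taken as 250 bases before and 50 after the listed start nearest to the outer gene end. The share with 4 GGG runs and loops of 1 to 7 bases on either strand was 38.6% (28.4 to 49.6). Over 15812 coding gene promoters of the same length it was 30.0%. Among members it was 5 of 17 at those marked in HD (29.4%, 10.3 to 56.0), 4 of 16 at those marked in Ctrl (25%, 7.27 to 52.4) and 29 of 67 at the unmarked (43.3%, 31.2 to 56.0). Over all coding genes it was 36.4%, 36.9% and 28.9% for the same 3 groups. With loops of up to 12 bases the shares among members were 52.9% in HD, 43.8% in Ctrl and 56.7% at the unmarked. Over all coding genes these were 55.9% in HD, 56.2% in Ctrl and 43.4% at the unmarked. SETD9 counts here as without the letters, since the promoter shown above belongs to another of its starts. The intervals for the members overlap each other, and these numbers are descriptions of a few promoters. The median share of G and C was 68.3% at members marked in HD, 66.2% at those marked in Ctrl and 66.7% at the unmarked. Over all coding genes it was 67.7% in HD, 67.7% in Ctrl and 61.7% at unmarked genes. Summits often lay outside the 300 bases searched, so a promoter without these letters says nothing about the rest of the peak.

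Other chromatin genes that the symbol rule does not catch were marked at shares like those of the members. A list of 185 such genes, written with earlier results known, was marked at 29 in HD (15.7%, 10.8 to 21.7, against 8.11% of all coding genes) and at 31 in Ctrl (16.8%, 11.7 to 22.9, against 10.9%). Both lists marked 15 (8.11%, against 5.20%), with a median ratio of 0.857 (0.887 over all genes in both lists). The HD list alone marked 14 (7.57%, against 2.92% of all coding genes) and the Ctrl list alone marked 16 (8.65%, against 5.70%). ATAD2, a bromodomain ATPase, had 96 fragments in HD and 76 in Ctrl (ratio 0.857, 0.627 to 1.17), above the 59 in HD and 49 in Ctrl that were the highest of the members. The caller's local expectation at the ATAD2 summit was also high, at 2.28 times the genome-wide value in HD and 2.02 times in Ctrl. WDR82, a subunit of SETD1 complexes, had 49 in HD and 37 in Ctrl, and the Polycomb protein gene CBX8 had 48 in HD and 37 in Ctrl. CBX7, another Polycomb chromodomain protein, had 35 in HD and 40 in Ctrl (ratio 0.593, 0.366 to 0.958, and 0.770, 0.475 to 1.24, when scaled by the input expectation). NCOA3, a nuclear receptor coactivator, had 42 in HD and 24 in Ctrl (ratio 1.19, 0.702 to 2.05). The SWI/SNF subunits PBRM1 and ACTL6A had 34 and 38 in HD, against 26 and 33 in Ctrl. At ACTL6A the local expectation was 1.02 times the genome-wide value in HD and 2.89 times in Ctrl. SRCAP, the ATPase that deposits H2A.Z, had 33 in HD and 25 in Ctrl, but these peaks did not overlap and their summits lay 642 bp apart. The arginine methyltransferase CARM1 had 31 in HD and 21 in Ctrl. BRPF1 and ING5, subunits of MYST acetyltransferase complexes, had 38 and 34 in HD, against 31 and 22 in Ctrl. At BRPF1 the local expectation was 1.07 times the genome-wide value in HD and 2.31 times in Ctrl. The H3 lysine 9 methyltransferase SUV39H2 had 28 in HD and 29 in Ctrl, and BAZ2B had 27 in HD and 22 in Ctrl. The histone chaperone genes UBN1 and ASF1B had 34 and 23 in HD, against 31 and 19 in Ctrl. Of the 14 marked in HD only, the 6 with the highest −log10 q are given: MEN1 had 37, PRMT2 36, ATAD2B 35, DPF2 33, ING2 30 and EP400 28 fragments. Of the 16 marked in Ctrl only, the 6 were chosen likewise: L3MBTL2 had 28, CABIN1 27, BCL7C 26, RUVBL2 26, MSL2 25 and MBD4 23. Some of these peaks also lay at an end of another coding gene. Among genes in both lists these were ATAD2 (with NTAQ1), BAZ2B (MARCHF7), ING5 (DTYMK), PBRM1 (GNL3) and UBN1 (GLYR1). Among the genes named from a single list they were ATAD2B (UBXN2A), DPF2 (TIGD3), RUVBL2 (GYS1) and MBD4 (IFT122). The DPF2 peak lay beyond the end of its gene. By class, marked genes ranged in HD from 0 of 11 for DNA methylation to 7 of 29 for other methyltransferases and COMPASS subunits (24.1%, against 8.11% of all coding genes), and in Ctrl from 1 of 11 for DNA methylation to 8 of 38 for other remodeller subunits (21.1%, against 10.9%).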

How the data were processed

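BG4 ChIP-seq of U2OS cells gave 1 deposited peak list per condition. Per the submitters' processing notes, the tools were MACS2 2.2.7.1, SAMtools, Bowtie2 2.5.0 and FastQC 0.11.9, and the build was hg38. Settings, duplicate removal and pooling of libraries were not given in the sources used here, and nothing says whether the replicates were separate cultures. The authors deposited for each peak a position, a summit, a fold enrichment (a ratio to the local background), −log10 p, −log10 q and a score, which is the whole part of 10 times −log10 q and gave no result here. The lowest −log10 q was 1.30 in HD and 1.31 in Ctrl.

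Each fold and p-value was converted to a whole number of ChIP fragments, with the scale (0.715 in HD, 0.927 in Ctrl) and genome-wide expectation (3.94 and 3.46) found from repeated pairs. Within 0.01, the number gave back the deposited −log10 p at 2262 of 2269 HD and 3497 of 3507 Ctrl peaks, and at all gene-end peaks of the genes named. More than 1 fragment number matched at 4.01% of HD and 3.25% of Ctrl peaks, but at no gene-end peak of the genes named. The conversion was tested on data simulated with the same formulas, which cannot show how well these describe the caller. The HD to Ctrl ratio of mean fragments per position, 1.47, scaled all ratios. Intervals on ratios are exact and conditional on the sum of both fragment numbers.

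Genes, promoters and strand came from RefSeq tables of GRCh38.p14, the assembly of hg38. The 794 genes not placed on assembled chromosomes were left out, as were 97 HD and 131 Ctrl peaks on other sequences. Where a gene had several peaks, the highest −log10 q was used. Folds and ranks are the authors' own or rest on them, and were compared within their own list. Python 3.11.15, scipy 1.17.1 and pandas 2.3.3 were used, and no per-sample column was left unused.

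The members, lists and comparisons were chosen with earlier results of these data known. All marked members are named, as are other chromatin genes marked in both lists, the 6 with the highest −log10 q of each list alone, and members with a peak inside the gene or just outside the window. Printed promoters belong to up to 6 shared members by summed rank and 3 of each list alone by −log10 q whose peak overlaps the promoter. Only those holding a summit were kept, a condition added after seeing the data. No test between conditions or gene sets was made. The values of 1 member are not reported here.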

Additional observations from a re-analysis of the deposited data

How the results depend on the processing

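Of 52 recalculated values, 46 stayed close to the reported one, meaning a count within 1.5 times and a motif share within its interval. Windows of 500 bp and 2 kb, a −log10 q of at least 3, 1 gene per peak and gene starts only moved no count of members or other chromatin genes by more than 1.5 times. With 2172 peaks from each list, members marked in Ctrl fell to 11 and those in Ctrl only to 2, with HDAC4, HDAC6, INO80, INO80B, KDM5A and SMARCC1 lost from Ctrl. This is the construction of that comparison, which drops the weaker Ctrl peaks. With any annotated start in place of gene ends, chosen after seeing the data, members in HD only were 3, while 17 were marked in HD and 20 in Ctrl of 88, against 8.58% and 11.8% of coding genes. The median HD to Ctrl ratio turned to above 1, at 1.12 when scaled by the input expectation and 1.27 with no scaling. This too follows from the construction, since another constant divides all genes. Loops of up to 12 bases gave G4 letters in 54.5% of member promoters, against 45.1% of all coding gene promoters. No paired analysis was possible because each condition has 1 peak list and no value per library was used, and for the same reason no replicate could be left out. With 19 to 59 fragments at the summits of shared members, 11 of 12 depth-scaled ratio intervals include 1.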

Other observations

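The caller's local expectation from input differed between the conditions at some members marked in both lists. At SMARCD2 it was 3.05 times the genome-wide value in HD and 1.60 times in Ctrl, at HDAC11 1.27 times in HD and 1.00 times in Ctrl, and at KMT5A 1.00 times in HD and 1.15 times in Ctrl. At INO80B it was 1.78 and 1.93 times, and at ARID4A 1.63 and 1.93 times, in HD and Ctrl. Over all marked members the median was 1.27 in HD and 1.15 in Ctrl, against 1.27 and 1.31 over all marked coding genes.

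KAT7 was the only member with 2 peaks at its ends in 1 list. Its Ctrl peaks of 25 and 23 fragments had summits 85 bp upstream and 568 bp downstream of the start. SETD9 had the widest Ctrl peak at a member's end, of 670 bp, and a peak of 551 bp in HD. Among HD peaks at member ends that of KMT5C was the widest, at 617 bp, against a median of 316 bp over marked members in each list and of 270 bp in HD and 268 bp in Ctrl over all marked coding genes.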
